A study of Danio rerio with 6 samples.

Results

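The response of the male zebrafish liver to 17β-estradiol (E2), the main natural estrogen, was examined across all genes with enough reads to be compared with vehicle. A gene was kept if the authors' deposited table gave it a mean of at least 20 normalised reads over these 4 libraries. This left 2234 of 17208 gene IDs with reads, which held 88.1% of the summed means. The gene with the lowest mean kept was srebf2 (20.007), and the first left out was stxbp3 (19.9971). Liver RNA was sequenced from male fish kept for 3 weeks in water with 1000 nM E2 dissolved in ethanol, or in water with ethanol alone. Each group had 2 libraries from 1 tank of 80 L that housed 40 fish, so tank and treatment cannot be told apart. Strain and age were not given in the labels used here, and neither was the number of fish behind a library. The p-values therefore rest on the spread between 2 libraries of a tank, and this spread may be technical. Another group, exposed to nonylphenol, is not described.

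Estrogens act mainly through nuclear estrogen receptors, which bind DNA as hormone-dependent transcription factors. In egg-laying vertebrates the liver of a maturing female answers ovarian estrogen by making and secreting large amounts of yolk precursor proteins, the vitellogenins. Male hepatocytes carry the same machinery but see little estrogen, so vitellogenin in a male fish is widely used as a sign of estrogen exposure. The liver also makes most plasma proteins, among them complement, clotting factors, apolipoproteins and acute phase proteins.

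Whole reads per library were recovered from the deposited means for 2208 of the 2234 genes. These held 69.7% of the summed means of the 2234, because several genes of the highest means were not recovered. The steps of the means cannot be tied to a named sample, so the libraries of a group are called the deeper and the shallower one. Over the recovered genes the deeper and shallower controls held 735703 and 496231 reads, and the E2 libraries 329729 and 35000. A single read therefore stood for 0.374, 0.588, 0.904 and 5.35 normalised reads in that order, and 512 genes had no read in the shallower E2 library. The median fold between 2 libraries of one group was 1.75 in control and 3.80 in E2. In E2 this was one-sided: the median log2 ratio of the deeper to the shallower library was 1.13, against 0.04 in control. Normalised reads over the recovered genes summed to 275172 and 291968 in control and to 297944 and 187103 in E2. All 13 hepatocyte markers had a mean of 20 or more. The 8 with recovered reads, among them fgb, which fell, summed to 9298 and 14708 normalised reads in control and 2988 and 4068 in E2. Most of the deeper control's sum was fgb (6098) and cp (2575), which were lower in both E2 libraries. By contrast rbp4 had 3.74 and 618 in control and 1542 and 1010 in E2. For ttr, at 123 and 91.8 in control and 64.2 and 90.9 in E2, the shallower libraries of the groups were level. The groups of fabp10a, fetub, hpda and gc overlapped. The part of these differences in the results below was not tested. Germ cell markers were at or near 0, and 0 of the testis list reached the mean of 20: dazl had no reads and ddx4 had 1 read in the shallower control. Pairs of values below are normalised reads of the deeper and then the shallower library unless called reads, and a fold change is the log2 value of the authors' deposited table with the authors' standard error (SE). The words rose and fell mean an adjusted p under 0.05 in that table.

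More genes fell than rose under E2 in the authors' fit. Per the authors' deposited table, 161 of the 2234 genes passed (7.21%): 56 rose (2.51%) and 105 fell (4.7%). Counts of risen and fallen genes in each list below are to be read against these shares. At an unadjusted p under 0.05 there were 490, of which 184 were higher and 306 lower in E2. Over all 3241 genes with an adjusted p, lower means included, 5.77% passed. The falls reached from the acute phase protein haptoglobin to enzymes of glycogen and folate metabolism, and the rises from vitellogenins to proteins of the endoplasmic reticulum. The median log2 fold change over all 2234 genes was -0.17, and its quartiles were -1.38 and 1.01 per the authors' deposited table. The smallest rise that passed was 3.21 and the smallest fall -3.30 on the log2 scale, and the authors' SE was never below 0.961, with a median of 1.18.

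**Figure D1:**
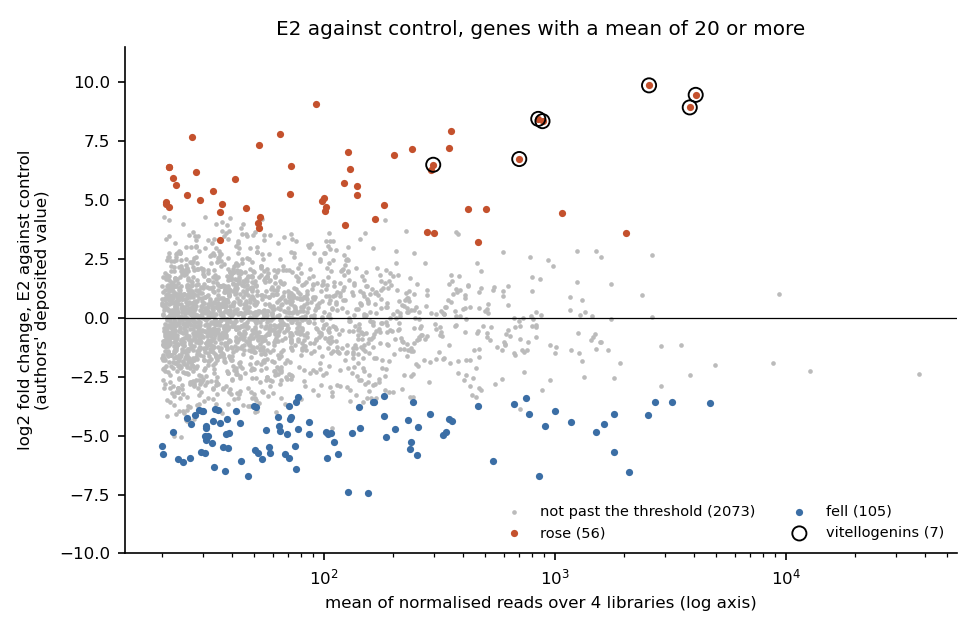
Each point is a gene, with its mean of normalised reads over the 4 libraries (log axis) against the authors' deposited log2 fold change of E2 against control. Risen genes (56, red) and fallen genes (105, blue) lie at both low and high means, and the 7 vitellogenins (rings) lie between 6.5 and 9.87.

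The libraries behind the calls separated to different degrees. The calls came from these same libraries, so their separation is no independent check. In 100 of 101 recovered falls both E2 libraries lay below both controls, as they did in 30.3% of all recovered genes. Of the 101 falls 60 had no read in the shallower E2 library, as had 23.2% of all recovered genes. In 44 of 56 rises both E2 libraries lay above both controls, against 14.8% of all recovered genes. Of the 56 risen genes 16 had over 90% of their normalised E2 reads in the deeper library, and for 7 that was the shallower one, a split that 35.01% of all recovered genes showed. Of the 101 recovered falls 14 had over 90% of their control reads in the deeper control, and 10 had it in the shallower, against 7.20% of all recovered genes.

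Yolk precursors led the rises. All 7 vitellogenin genes in the set rose, with log2 fold changes of 6.5 to 9.87 per the authors' deposited table. Both E2 libraries lay above both controls for each, as in 14.8% of all recovered genes. Vitellogenin reads were 81 and 76 in the controls and 19143 and 6627 in E2. The recovered genes leave out several of the highest means. Of their reads, vitellogenins made up 0.0110% and 0.0153% in control, and 5.81% and 18.9% in E2. The shallower E2 library thus held the larger share. Several of the vitellogenin genes are near copies of each other, so the division of reads among those is uncertain.

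A further list held estrogen receptors and genes known to answer estrogen in fish liver, vitellogenins apart. Of its 5 genes 2 rose (median 1.35 per the authors' deposited table). Without the deeper E2 library its median log2 ratio of recovered reads was -0.90, against 1.40 with all libraries. The estrogen receptor gene esr1 had 1.12 and 0.588 normalised reads in control and 248 and 37.4 in E2, a rise of 6.45 ± 1.3 per the authors' deposited table (adjusted p = 0.000113). Nothepsin (nots), an aspartic protease of the female fish liver, had 0.374 and 3.53 in control and 333 and 625 in E2, and rose by 7.18 ± 1.19 per the authors' deposited table (adjusted p = 6.06e-07). For nots the shallower E2 library was the higher one, and for esr1 the deeper. The other receptors lay below the mean of 20. Of these esr2b did not pass, with 17.6 and 9.41 in control against 20.8 and 10.7 in E2. For esr2a, with 2.62 and 7.06 against 14.5 and 0, the authors' deposited table gave no adjusted p. Their groups overlapped.

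Proteins of the endoplasmic reticulum, where secreted proteins are folded, were among the rises. Genes that rose made up 42.9% of 7 membrane structure genes, 10.3% of 29 chaperones and 6% of 50 genes of the secretory pathway, against 2.51% of all genes. The membrane structure list had a median of only 0.09 per the authors' deposited table, with 4 genes positive and 3 negative. In 2 of the 7 both E2 libraries lay above both controls, against 14.8% of all recovered genes. Reticulocalbin 3 (rcn3), a calcium-binding protein of the lumen, had 0 and 2.94 normalised reads in control and 779.8 and 641 in E2. It rose by 7.92 ± 1.27 (adjusted p = 2.19e-07) per the authors' deposited table, the highest of any gene with an informative symbol outside the vitellogenins. The E2 libraries lay close together, far above the controls. The reticulon rtn1a, which shapes the membrane of the endoplasmic reticulum, had 2.99 and 2.35 in control and 1223 and 171 in E2, and rose by 7.22 ± 1.19 per the authors' deposited table. RRBP1 (1 of 2), which binds ribosomes to that membrane, had 20.9 and 28.2 against 1377 and 262 (4.64 ± 1.11 per the authors' deposited table). Both genes were 5 or more times higher in the deeper than in the shallower E2 library, which itself stayed above the controls. The third of the 7 genes for membrane structure that rose, reep2, had 153 reads in the deeper E2 library and 0 in the other. Its direction rested on the deeper library alone.

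Of 29 chaperones and stress-response genes of the endoplasmic reticulum 3 rose, 0 fell and 26 did not pass, with a median of 0.65 per the authors' deposited table against -0.17 over all genes. The prolyl isomerase fkbp11 had 9.35 and 10.0 normalised reads in control and 146 and 561 in E2, 36.6 times the control mean. SERP1, a membrane protein of the translocon region, had 43.0 and 114 against 951 and 759, the smallest rise that passed (3.21 ± 1.03 per the authors' deposited table). The pseudokinase trib3, a target of the stress pathway in mammals, had 7.85 and 2.94 against 55.1 and 144. In each of these 3 genes both E2 libraries lay above both controls. Of the 29 genes 9 were so placed (14.8% of all recovered genes were), and 3 had both E2 libraries below both controls (30.3% of all). The general chaperone hspa5 (BiP) did not pass: its controls, at 476 and 51.8, spanned the deeper E2 library at 348, and the shallower E2 library was at 759. Without the deeper E2 library the list's median log2 ratio of recovered reads was -0.38, against 0.65 with all libraries.

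Genes of the wider secretory pathway, from translocon and glycosylation to vesicle coats and cargo receptors, rose or did not pass. Of 50 genes of the secretory pathway 3 rose, 0 fell and 47 did not pass, and 36 had a positive log2 fold change (median 0.79 per the authors' deposited table). Those that rose were rcn3, fam20cl and mcfd2. The gene fam20cl, of a family of kinases that phosphorylate secreted proteins, had 0 and 1 reads in control and 124 and 18 in E2. The cargo receptor subunit mcfd2, which in humans carries clotting factors out of the endoplasmic reticulum, had 49.0 and 24.1 normalised reads in control and 919.9 and 203 in E2. The authors' deposited table gave 7.33 ± 1.35 for fam20cl and 3.62 ± 1.11 for mcfd2. In the shallower E2 library 18 of the 50 genes were higher than in the deeper one, 22 had both E2 libraries above both controls (14.8% of all recovered genes did) and 5 had both below (30.3% of all). Without the deeper E2 library the list's median log2 ratio was 0.56, and without the shallower 0.74.

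**Figure D2:**
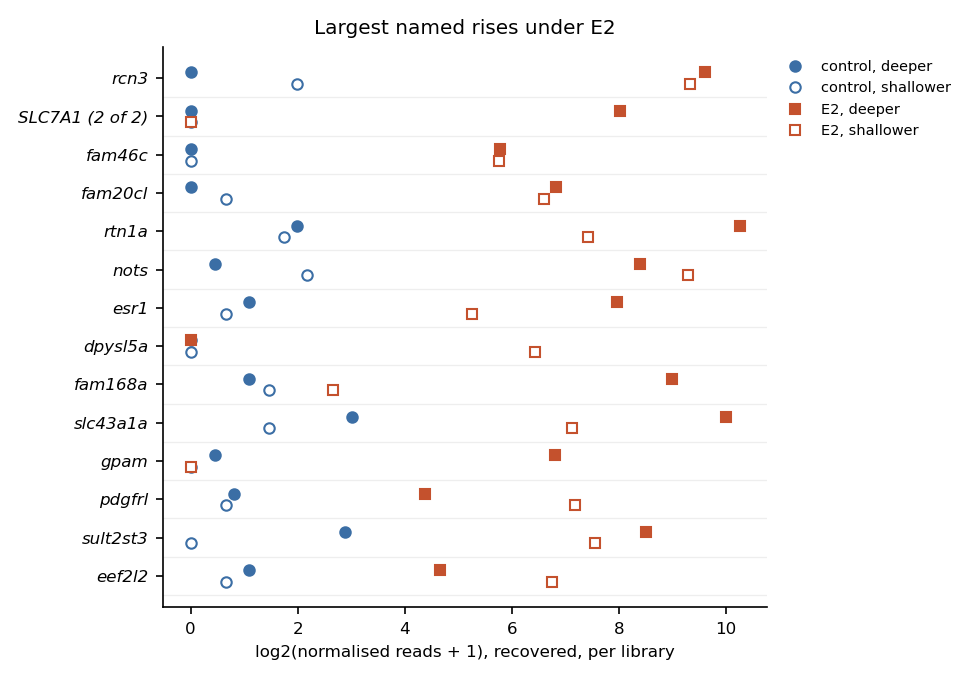
Of the 15 largest named rises outside the vitellogenins 14 are drawn, one gene a row, with log2(normalised reads + 1) of each library: controls as circles, E2 as squares, the deeper library filled. Both squares lie right of both circles in 11 genes, while SLC7A1 (2 of 2), gpam and dpysl5a have one E2 library at 0, where symbols overlap.

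Amino acid transporters and enzymes of folate metabolism were also among the rises. SLC7A1 (2 of 2), a carrier of cationic amino acids, had 286 reads in the deeper E2 library and 0 in the other 3 libraries, so the shallower E2 library, like the controls, held none. Its mean of normalised reads in E2 was at least 188-fold higher than a floor of 3 reads over the control group (0.686 normalised reads). The neutral amino acid carrier slc43a1a had 7.11 and 1.77 normalised reads in control and 1020.2 and 139 in E2 (6.28 ± 1.23 per the authors' deposited table). The glutamine carrier slc38a3a went the other way, with 49.7 and 89.4 in control and 2.71 and 0 in E2, and fell by 4.47 ± 1.33 per the authors' deposited table. Of 10 amino acid transporters 2 rose, 1 fell and 7 did not pass (median -1.56 per the authors' deposited table). Among all 55 solute carriers 2 rose (3.64% against 2.51% of all genes). From the same list 5 fell (9.09% against 4.7%): slc38a3a, slc27a2b, slc25a32a, slc25a48 and slc22a2.

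The folate and methionine cycle split into risen and fallen enzymes. Of its 16 genes 3 rose (18.8% against 2.51% of all genes) and 3 fell (18.8% against 4.7%). The mitochondrial enzyme mthfd2 had 7.48 and 1.18 normalised reads in control and 44.3 and 155 in E2 (4.01 ± 1.22 per the authors' deposited table). Its mitochondrial partner mthfd1l, named with slc25a32a to complete the count, had 127 reads in the deeper E2 library and none in the shallower. The falls were the cytosolic enzyme aldh1l1, the methyltransferase bhmt and the mitochondrial folate carrier slc25a32a. For aldh1l1 the controls had 99.9 and 459.5 and the E2 libraries 5.42 and 10.7, -4.69 ± 1.21 per the authors' deposited table. For bhmt, which remethylates homocysteine with betaine, the controls had 781 and 3034 and the E2 libraries 20.8 and 166 (adjusted p = 0.0275 per the authors' deposited table). All 3 fallen genes were higher in the shallower control, and slc25a32a had 11 reads in the deeper control against 370 in the shallower.

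Of the lipid synthesis genes hmgcra and gpam rose and me1 fell. The rate-limiting cholesterol enzyme hmgcra had 69.9 and 54.1 normalised reads in control, and 4051 and 123 in E2. It rose by 4.47 ± 1.3 per the authors' deposited table (adjusted p = 0.0198). Among 9 cholesterol synthesis genes, whose median was 0.61, it was the single riser (11.1% against 2.51% of all genes). The acyltransferase gpam, which starts glycerolipid synthesis, rose by 6.19 ± 1.61 per the authors' deposited table on 123 reads of the deeper E2 library. The shallower E2 library held none. Of 13 genes of fatty acid and triglyceride synthesis gpam was the single riser (7.69% against 2.51% of all genes). The single faller was me1 (7.69% against 4.7%), and the median was -0.74 per the authors' deposited table. Without the shallower control that list's median log2 ratio of recovered reads turned to 0.22, from -0.46 with all libraries. Malic enzyme (me1), a source of NADPH for fatty acid synthesis, fell by 5.60 ± 1.56 per the authors' deposited table, from 29 and 321 reads in control to 1 and 0 in E2. All 8 phospholipid synthesis genes had a positive log2 fold change and 0 passed, with a median of 2.06 per the authors' deposited table. Of these, phosphatidylserine decarboxylase (pisd) came nearest to the threshold, with 55.7 and 27.1 in control, 1317 and 90.9 in E2 and an adjusted p of 0.0537 per the authors' deposited table. Its groups did not overlap, with both E2 libraries above both controls, as in 14.8% of all recovered genes. The choline phosphotransferase chpt1 had 82.3 and 123 against 376 and 123. The list's median log2 ratio of recovered reads was 0.69 without the deeper E2 library and 3.04 without the shallower.

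The remaining large rises had no common list. The gene fam46c, whose product in mammals lengthens the poly(A) tails of mRNAs of secreted proteins, had 60 and 10 reads in E2 and none in control, at least 78.5-fold higher with the same floor. Its normalised E2 values, 54.2 and 53.5, were nearly equal. The sulfotransferase sult2st3 had 6.36 and 0 in control and 361 and 187 in E2, and was the single riser among 15 conjugation enzymes (5.61 ± 1.31 per the authors' deposited table). That list's median log2 ratio was -0.69 with all libraries and turned to 1.01 without the shallower control. The elongation factor relative eef2l2 had 3 and 1 reads in control and 27 and 20 in E2, and the receptor-like pdgfrl 2 and 1 against 22 and 27. Both were higher in the shallower E2 library once normalised. In dpysl5a, of a family known from neurons, all 16 E2 reads were in the shallower library. In fam168a 563 reads were in the deeper E2 library and 1 in the shallower. Those rises and that of SLC7A1 (2 of 2) rest on the reads of 1 library each. Among the rises of highest mean, si:dkey-153m14.1 had 151 and 344 in control and 6699 and 952 in E2. The gene arhgef16 had 8.23 and 41.8 against 1912 and 58.8. Their fold changes per the authors' deposited table were 3.59 ± 1.16 and 4.61 ± 1.35.

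A few rises were singled out after their values were seen. The gene si:ch211-170n20.3, now named eevs, encodes the first enzyme of the synthesis of gadusol, an ultraviolet-absorbing compound made by zebrafish. It had 0 reads in both controls and 115 and 50 in E2, with a log2 fold change of 9.07 ± 1.52 per the authors' deposited table (adjusted p = 7.72e-07). Glycogenin (gyg1a), the primer of glycogen synthesis, had 12 and 52.4 normalised reads in control and 890.0 and 166 in E2, with both E2 libraries above both controls. Of the paralogs tmem56a and tmem56b, tmem56b rose by 3.95 ± 1.25 and tmem56a fell by 4.58 ± 1.47 per the authors' deposited table.

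Acute phase proteins and complement held the most falls of any list. Of 44 such genes 12 fell (27.3% against 4.7% of all genes), 0 rose and 32 did not pass, and all 44 had a negative log2 fold change. Their median was -2.47 per the authors' deposited table, against -0.17 over all genes. Haptoglobin (hp), which binds free haemoglobin, had 2759 and 622 normalised reads in control and 9.04 and 10.7 in E2, 171 times lower. It fell by 6.73 ± 1.17 per the authors' deposited table (adjusted p = 1.98e-06). A second gene ID with the symbol hp, named msmbl in the newer gene name table, did not pass (-1.3 ± 1.24 per the authors' deposited table). The chemotactic factor lect2l had 1974 and 170.0 against 8.13 and 10.7. In hp and lect2l the E2 libraries nearly coincided, and the deeper control was over 4 times the shallower. Serum amyloid A (saa) had 466 and 3 reads in control and none in E2, so all but 3 of its reads came from the deeper control. The other falls of the list were cfhl3, cfhl5 and C1S (2 of 3), beside copies of C3 and terminal components.

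The central complement component C3 is encoded by several neighbouring copies, among which reads may be shared. For c3a.1, the copy with the highest mean, the controls had 6094 and 5974 normalised reads and the E2 libraries 169 and 674, 14.3 times lower. The authors' deposited table gave -3.56 ± 1.07 for c3a.1, -5.83 ± 1.18 for c3a.2, -4.97 ± 1.11 for c3a.3 and -4.16 ± 1.11 for c3a.6. The controls of c3a.1 and c3a.3 were close to each other, with c3a.3 at 588 and 696 in control and 6.33 and 26.7 in E2. In c3a.2 the shallower control was higher, at 688 against 309. Of the terminal components, which form the membrane attack complex, c9 and C7 (2 of 2) fell, here named after their values were seen, and c5, c6, c8a, c8b and c8g did not pass. For c9 the controls had 5493 and 4222 and the E2 libraries 284 and 176 (-4.12 ± 0.98 per the authors' deposited table). C7 (2 of 2) had 3426 and 126 in control and 10.8 and 80.2 in E2, with its deeper control over 20 times higher than its shallower. The list's median log2 ratio of recovered reads lay between -4.08 and -2.44 when any 1 library was left out.

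**Figure D3:**
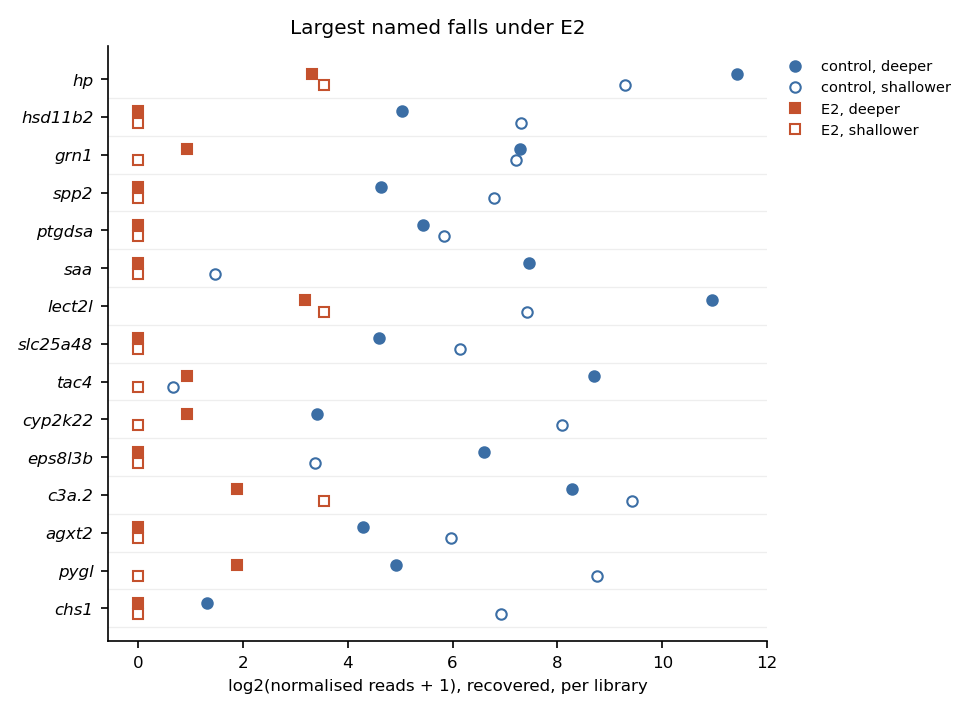
The 15 largest named falls, one gene a row, with log2(normalised reads + 1) of each library: controls as circles, E2 as squares, the deeper library filled. The squares lie below 4 and left of both circles in every gene but tac4, whose shallower control falls between the E2 libraries.

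Some clotting factors and plasma carriers were also among the falls. Of 23 genes on the coagulation list, which held clotting factors and serpins, 5 fell (21.7% against 4.7% of all genes) and 18 did not pass. All 23 had a negative log2 fold change (median -2.44 per the authors' deposited table). Von Willebrand factor (vwf), which was not on that list, went the other way. It rose by 5.22 ± 1.49 (adjusted p = 0.0169 per the authors' deposited table). Fibrinogen beta (fgb), a chain of the clot protein, had 6098 and 4024 normalised reads in control and 474 and 235 in E2, 14.3 times lower. Its partner chain fga fell by 3.60 ± 1.01 per the authors' deposited table, and the third chain fgg did not pass (-2.44 ± 1.08, adjusted p = 0.165). Reads of fga and fgg were not recovered. Factor V (f5), the cofactor of thrombin formation, had 690.5 and 204 against 24.4 and 5.35, and the protease inhibitor serpinb1 had 61.7 and 53.0 against 3.61 and 0. Of 17 plasma carriers 2 fell, hp and the haem carrier HPX (2 of 2), and 15 did not pass. Without the shallower control that list's median log2 ratio of recovered reads was -0.03, against -1.29 with all libraries. HPX (2 of 2) had 3950.1 and 576 in control and 62.3 and 96.2 in E2 (-4.41 ± 1.15 per the authors' deposited table). The iron store ferritin (fth1a) fell by 3.38 ± 1.04 per the authors' deposited table, from 2073 and 716 to 100.3 and 123. Transferrin (tfa), the plasma iron carrier, did not pass (-2.27 ± 1.1, adjusted p = 0.222 per the authors' deposited table). Of 18 metal handling genes 3 fell in all.

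Genes of inflammation and of immune cells fell too, and their control reads lay mostly in the deeper control. In bulk liver RNA fewer cells of a type and less RNA per cell cannot be told apart. Of 11 genes of inflammatory signalling 5 fell (45.5% against 4.7% of all genes) and 6 did not pass, with a median of -2.86 per the authors' deposited table. The NF-κB inhibitors nfkbiaa and nfkbiab, which are themselves switched on by NF-κB, had 97.2 and 25.9, and 96.5 and 98.8, in control. In E2 nfkbiaa had 0.904 and 0 and nfkbiab 8.13 and 0. For irg1, which makes the antimicrobial metabolite itaconate, the controls had 217 and 64.7 and the E2 libraries 8.13 and 0. The cytokine signalling inhibitor socs1a had 208 and 4 reads in control and none in E2, a mean at least 17.3-fold lower against a floor of 3 reads over the E2 group. Nearly all of its reads came from the deeper control, whereas the 2 controls of nfkbiab were level.

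Of 12 interferon response genes 3 fell (25% against 4.7% of all genes), with a median of -2.53 per the authors' deposited table. Among them were socs1a and the antiviral GTPase mxc, the latter with 597 and 15 reads in control against 1 and 0 in E2. The third, si:dkey-79f11.10, fell by 7.43 ± 1.67 per the authors' deposited table, and its reads were not recovered. All 11 recovered genes of the list were higher in the deeper control. Of 8 chemokine and cytokine genes 2 fell, cxcl18b and cxcl20. The neutrophil attractant cxcl18b had 231 and 46.5 in control and 7.23 and 0 in E2, and cxcl20 had 121 and 70.0 against 8.13 and 0. The authors' deposited table gave -4.30 ± 1.32 and -3.74 ± 1.24 for them. Without the deeper control the list's median log2 ratio of recovered reads was -0.12, against -4.14 with all libraries. That of the interferon list was -1.75 against -2.70.

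Of 12 macrophage and antigen presentation genes 3 fell (25% against 4.7% of all genes) and 9 did not pass (median -3.02 per the authors' deposited table). Granulin 1 (grn1), a growth factor precursor, had 416 and 250 reads in control and 1 and 0 in E2, -6.41 ± 1.40 (adjusted p = 0.000623 per the authors' deposited table). Its 2 controls were level once normalised, at 156 and 147. Its relative grn2 had 71.1 and 58.8 in control against 2.71 and 0. The lysosomal protease ctssb.2 had 249 and 54.7 against 5.42 and 0, and cathepsin L (ctsla) 629.9 and 362 against 14.5 and 16.0. With the membrane protein cd63, at 514 and 97.1 against 23.5 and 16.0, these were the 3 of 21 lysosome genes that fell (14.3%). The 5 defining macrophage markers, marco, cd74a, mpeg1.1, lyz and csf1ra, summed to 125 and 151 normalised reads in control and 90.4 and 64.1 in E2. The sum joined unlike markers, each with overlapping groups. For cd74a the values were 44.1 and 144 in control and 71.4 and 64.1 in E2. For marco they were 66.2 and 2.35 in control and 9.04 and 0 in E2. All but cd74a were at 0 in the shallower E2 library, csf1ra was at 0 in the shallower control, and their part in the falls was not tested.

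**Figure D4:**
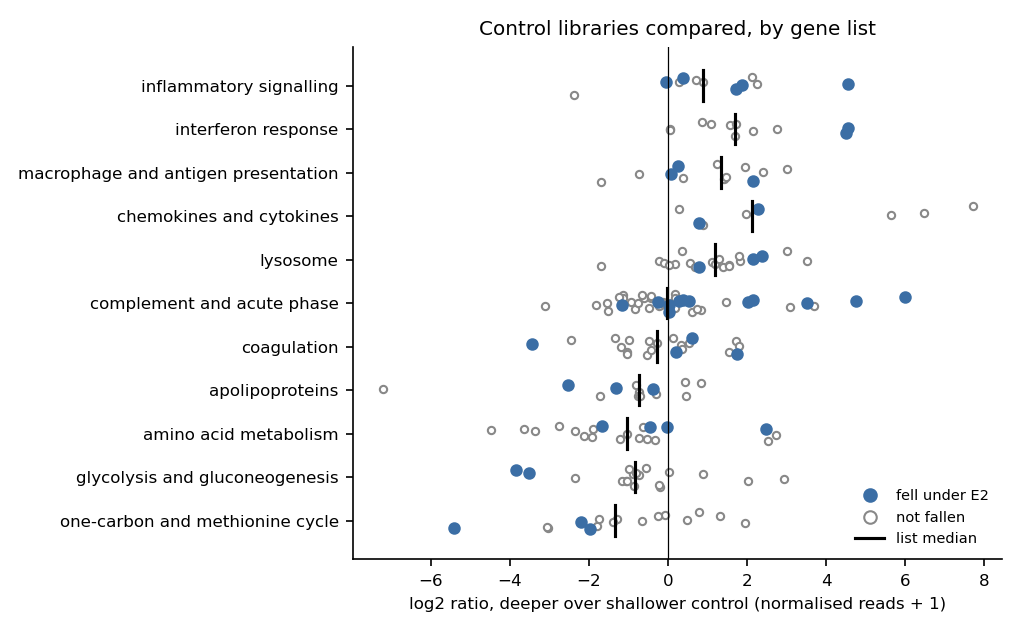
For each recovered gene of 11 lists, the log2 ratio of the deeper to the shallower control (normalised reads + 1), with fallen genes filled and the list median as a bar. Immune lists lie right of 0 (higher in the deeper control), metabolic lists left of it, and complement and coagulation around 0.

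The 2 controls thus differed by gene group. The median log2 ratio of the deeper to the shallower control was 0.04 over all recovered genes. It was 2.14 in chemokines and cytokines, 1.71 in the interferon response, 1.34 in macrophage genes and 1.19 in lysosome genes. It was -1.33 in the folate and methionine cycle, -1.04 in amino acid metabolism, -0.83 in glycolysis and gluconeogenesis and -0.73 in apolipoproteins. Complement and acute phase genes had a ratio of -0.02, although 10 of their 12 falls were higher in the deeper control. Of all 101 recovered falls 59 were higher in the deeper control and 42 lower. None of these 101 genes turned to the opposite direction when either control was left out. For 100 of them that outcome was fixed in advance, because both E2 libraries lay below both controls.

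Most fallen enzymes of sugar and amino acid metabolism were higher in the shallower control. Of 20 glycolysis and gluconeogenesis genes 3 fell (15% against 4.7% of all genes) and 17 did not pass (median -1.56 per the authors' deposited table). Glycogen phosphorylase (pygl), which releases glucose from glycogen, had 29.2 and 430.1 normalised reads in control and 2.71 and 0 in E2, and fell by 5.79 ± 1.45 per the authors' deposited table. The gluconeogenic enzyme fbp1b had 62.8 and 727 against 4.52 and 16.0. For both the shallower control was over 10 times the deeper, which still lay above both E2 libraries. Of 21 amino acid enzymes 4 fell (19%) and 17 did not pass (median -1.61 per the authors' deposited table). Without the shallower control their median log2 ratio of recovered reads was -0.27, against -1.83 with all libraries. Threonine dehydrogenase (tdh) had 931 and 167 in control and 7.23 and 42.8 in E2, the alanine transaminase gpt2l 305 and 310.1 against 7.23 and 37.4. The tryptophan pathway enzyme acmsd had 67.7 and 93.0 against 5.42 and 0, and the transaminase agxt2 had 50 and 105 reads in control and none in E2. Of these 4 genes tdh was higher in the deeper control, and gpt2l was level between the controls.

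Apolipoproteins, the protein part of lipoprotein particles, fell in 3 of 16 genes (median -1.52 per the authors' deposited table). Apolipoprotein E (apoeb) had 603 and 782 normalised reads in control and 26.2 and 26.7 in E2, 26.2 times lower, with both pairs close (-4.39 ± 1.02, adjusted p = 0.00151 per the authors' deposited table). The structural apolipoprotein apobb.2 had 60.6 and 351 against 6.33 and 0, and apoa4b.1 260.3 and 648 against 8.13 and 53.5. The main apolipoproteins of high-density particles, apoa1b and apoa2, did not pass, with -1.94 ± 1.0 and -1.13 ± 1.01 per the authors' deposited table. The protease inhibitor serpina1, the third hepatocyte marker to fall of 22 beside fga and fgb, had 213 and 2311 in control and 47.9 and 102 in E2. Without the shallower control the median log2 ratio was -0.14 for hepatocyte markers and -0.91 for apolipoproteins, against -1.50 and -2.0 with all libraries. The selenoprotein P gene sepp1b fell by 3.30 ± 1.03 per the authors' deposited table, from 318 and 352 to 34.3 and 21.4. It was the single faller among 18 antioxidant genes. Its paralog sepp1a, with a mean of 1749 against 181, did not pass (1.44 ± 1.20, adjusted p = 0.574 per the authors' deposited table).

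Steroid conversion and cytochrome P450 genes, and nuclear receptors apart from esr1, gave single calls, and bile acid genes none. The enzyme hsd11b2, which inactivates cortisol, had 31.8 and 157 normalised reads in control and 0 in both E2 libraries. With a floor of 3 reads over the E2 group (2.32 normalised reads) its mean was at least 40.6-fold lower in E2, and it was the single faller among 5 steroid conversion genes. The cytochrome cyp2k22 had 26 and 463 reads in control and 1 and 0 in E2, the single faller of 15. The orphan receptor nr0b1, a repressor of steroid synthesis genes in mammals, had 172 and 97.7 in control and 1.81 and 5.35 in E2 (-4.93 ± 1.24 per the authors' deposited table). It was the single call of 9 nuclear receptors on a list that did not hold esr1, which rose. Both bile acid genes in the set missed the threshold: the sterol hydroxylase cyp8b1 had -3.65 ± 1.29 and an adjusted p of 0.0668 per the authors' deposited table, and the bile salt exporter abcb11b -3.64 ± 1.36 and 0.0855. Both E2 libraries of either gene lay below both controls, as in 30.3% of all recovered genes. The growth factor binding proteins igfbp1a and igfbp3 did not pass either (-1.37 ± 1.27 and -3.98 ± 1.49 per the authors' deposited table), and 0 of 7 genes of that axis fell.

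Other named falls were single genes. Secreted phosphoprotein spp2 had 64 and 187 reads in control, the prostaglandin D synthase ptgdsa 113 and 95, and the mitochondrial carrier slc25a48 62 and 119, with none in E2 for any of them. They were at least 28.9, 21.2 and 20.1 times lower with the same floor. The fatty acid transporter slc27a2b had 86.0 and 58.8 normalised reads against 0.904 and 0, and the matrix protein tgfbi 52.4 and 100.0 against 0.904 and 0. The transcription factor cebpd, the single faller of 15 immediate early genes, had 74.4 and 56.5 against 4.52 and 0. The tachykinin precursor tac4 had 1103 reads in the deeper control and 1 in the shallower, and eps8l3b, of a family of actin regulators, had 256 and 16. Those falls rest on the deeper control, and tac4 was the single fallen gene with recovered reads whose groups overlapped. Chosen after its values were seen, the uncoupling protein ucp1 fell by 5.71 ± 1.14 per the authors' deposited table (adjusted p = 8.83e-05). Intelectin itln3, a lectin that binds microbial sugars, was chosen likewise and had 5053 and 824 in control against 12.7 and 123.

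Translation and respiration gave few calls. Of 82 cytosolic ribosomal protein genes 0 rose and 0 fell, with a median of -0.01 and a range of -1.50 to 1.79 per the authors' deposited table. Without the deeper control the list's median log2 ratio of recovered reads was -0.26, and without the shallower 0.37, so its sign depended on the library left out. The 5 genes of highest mean with a log2 fold change within 0.25 of 0 were the elongation factor eef1a1l1 (0.04), the ribosomal proteins rpl23 (-0.06), rpl10a (0.07) and rps12 (0.14), and the ATP synthase subunit atp5b (0.25) per the authors' deposited table. Their SE of 0.96 to 1.07 leaves room for changes of more than 2-fold either way. Of 82 citrate cycle and oxidative phosphorylation genes 0 rose and 0 fell (median -0.56 per the authors' deposited table), with mdh1aa at 495 and 818 in control and 196 and 278 in E2. Genes of the mitochondrial genome had a median of -1.54 with 0 of 12 fallen per the authors' deposited table. For mt-atp6 the controls had 2904 and 3300.2 and the E2 libraries 198 and 1278, so the E2 libraries differed by a factor of over 6.

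Per the authors' deposited table, the other lists without a call had medians of -0.65 for fatty acid oxidation (21 genes), -1.12 for the proteasome (28), 0.39 for heat shock proteins (10), 0.45 for the cell cycle (5) and 0.28 for the circadian clock (3). The fatty acid carriers of the cytosol are one example: fabp10a had 319 and 2631 in control and 135 and 978 in E2, and fabp3 115 and 357 against 323 and 241. Their groups overlapped. The proteasome subunit psmb5 had 147 and 102 against 19.0 and 21.4, at an adjusted p of 0.154 per the authors' deposited table. Its E2 libraries lay below both controls, as in 30.3% of all recovered genes. The chaperone hsp90ab1 had 437 and 1298 against 305 and 326. Among 53 translation factors eef2l2 was the single riser.

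**Figure D5:**
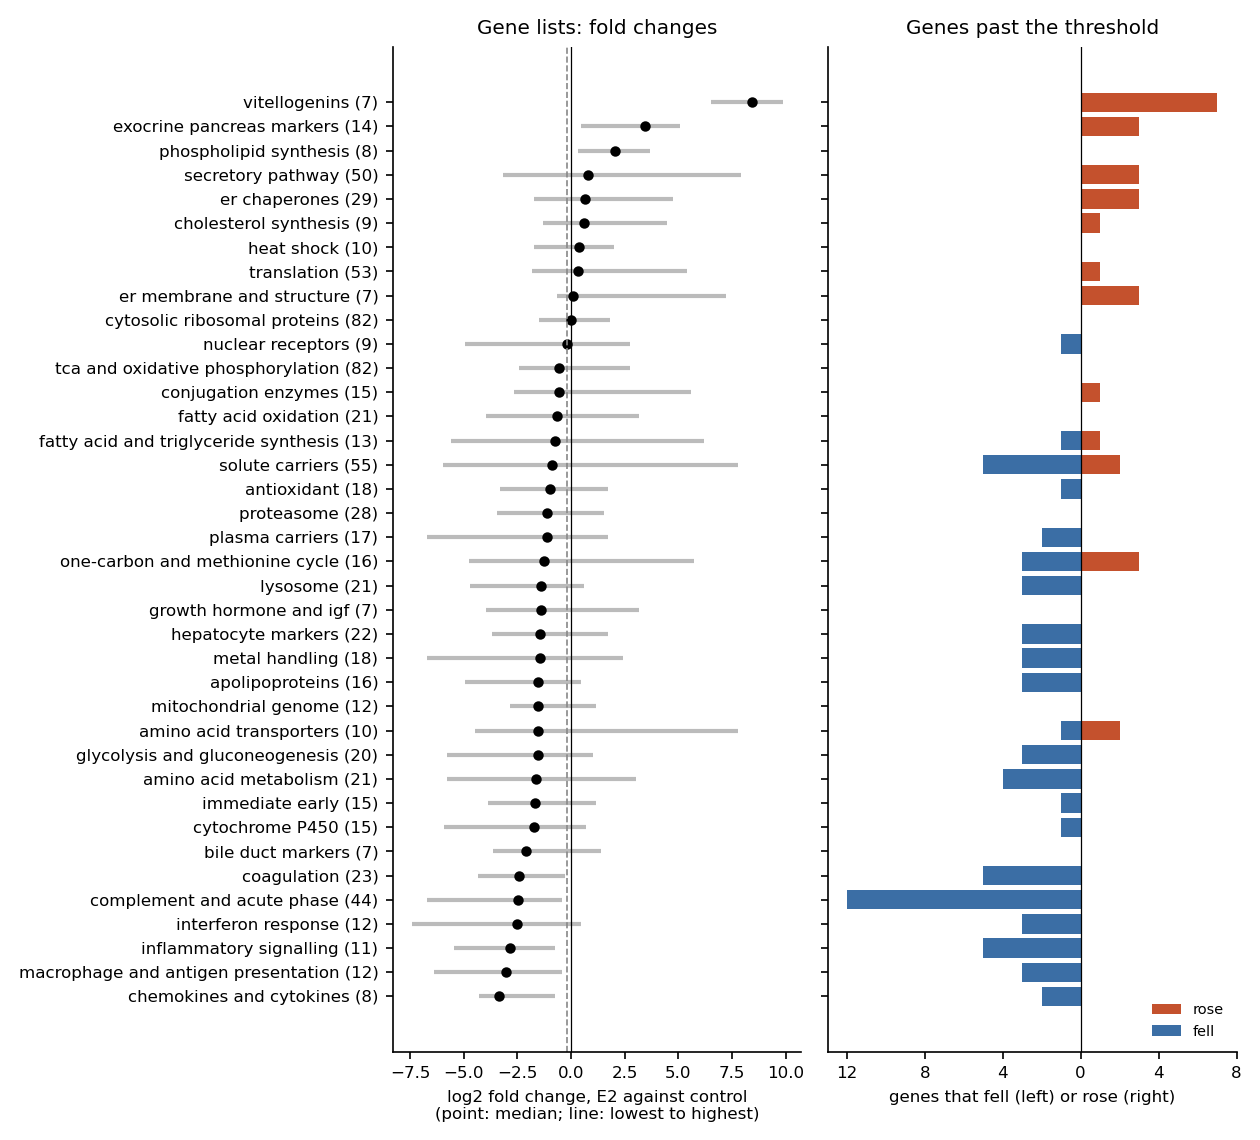
Left, the median (point) and range (line) of the authors' deposited log2 fold changes of E2 against control in each list with 7 or more genes (number in brackets), with the median over all 2234 genes dashed at -0.17. Right, how many genes of each list fell (blue) or rose (red): 12 fell in complement and acute phase and 7 rose among vitellogenins.

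Transcripts of neighbouring organs differed between single libraries. Exocrine pancreas genes rose in 3 of 14 (21.4% against 2.51% of all genes), with a median of 3.45 per the authors' deposited table. The risers were the elastase CELA1 (1 of 7), the trypsin-like prss59.1 and the carboxypeptidase cpb1. The trypsin-like gene prss59.1 had 5.24 and 18.8 normalised reads in control and 45.2 and 599 in E2. For CELA1 (1 of 7) the reads were 1 and 9 against 5 and 73, and for cpb1 0 and 4 against 4 and 26. The 9 defining pancreas markers summed to 34.8 and 129 in control and to 112 and 1764 in E2, so the high value was that of the shallower E2 library. Intestine markers stood out in the shallower control: fabp2, anpepb, vil1, fabp6 and cdx1b summed to 321 there, and to 0.374 in the deeper control and 1.81 and 5.35 in E2. In the deeper control all but anpepb were at 0. The chitin synthase chs1, which fell by 5.75 ± 1.77 per the authors' deposited table, had 4 reads in the deeper control, 205 in the shallower and none in E2. The mucin muc13b, chosen after its values were seen, had 20 and 194 against 1 and 0. The part of intestinal or pancreatic tissue in these calls, and in the falls that were highest in the shallower control, was not tested.

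Markers of further cell types gave single calls or none. Of 7 bile duct genes 0 fell, with a median of -2.10 per the authors' deposited table, against -0.17 over all genes. In 6 of the 7 both E2 libraries lay below both controls, against 30.3% of all recovered genes. Among them krt8 had 447 and 375 in control and 83.1 and 48.1 in E2, and anxa4 178 and 335 against 34.3 and 5.35. Both pairs of groups were apart, at adjusted p of 0.126 and 0.0668 per the authors' deposited table. Endothelial and stellate genes (2 genes, 0 fallen) and the erythrocyte gene si:dkey-25o16.2 (-0.06 ± 1.21 per the authors' deposited table) did not pass. Of 4 genes on the intestine list 1 fell, apoa4b.1, which the liver also expresses. Of 3 matrix genes tgfbi fell.

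The calls depended on the model. The authors' fit called 161 genes, whereas limma-voom on the recovered reads of 2208 genes called 3, all vitellogenins (vtg7, vtg6 and vtg4). In that fit 337 genes had an unadjusted p under 0.05, of which 173 were higher and 164 lower in E2. The excess of falls in the authors' fit was thus not seen there. When the deeper E2 library was left out 7 of the 56 rises lay in the opposite direction (gpam, reep2, mthfd1l, mastl, hltf, cracr2b and si:dkey-11f4.7), and without the shallower 1 did (zgc:55461).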

How the data were processed

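Liver RNA of male zebrafish was sequenced with 2 libraries in each group of this comparison. Per the submitters' processing notes, TopHat2, HTSeq and DESeq2 were used with the genome build GRCz10; versions and settings are not given in the sources used here. The deposited tables hold comparisons, not counts per library. Per the file headers, the authors give a mean of normalised reads per gene (a signal), a log2 fold change with its SE, a test score, a p-value and an adjusted p. The test of E2 against control is the authors', used as deposited over the whole table; a planned count test was replaced by it. Low genes without an adjusted p were left as such.

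Reads per library were recovered with the nonylphenol table, which shares the controls. Means up to 150 were solved by arithmetic alone, and all 1852 gave back the deposited log2 fold change and SE within 0.003. Higher means had to meet that tolerance as well, and 356 of 382 were solved. Of the 26 not solved, 1 had no candidate that met it, and the others had several candidates or were not tried. Ratios without a library use a pseudocount of 1. Normalised values are reads divided by the authors' size factors, and intervals for counting error were not computed. Recovery and limma-voom were tested on simulated data. Python 3.11.15, NumPy 2.4.6, pandas 2.3.3, SciPy 1.17.1, Numba 0.67.0, matplotlib 3.10.9, R 4.3.3 and limma 3.58.1 were used.

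Named genes, outside vitellogenins, were the 15 largest rises and falls with an informative symbol, the 3 of highest mean called in each direction, in each list up to 4 called by adjusted p (or the 2 of highest mean where none was called), the 5 of highest mean within 0.25 of 0, and esr1, esr2a, esr2b and nots. Others (c9, C7 (2 of 2), c3a.6, cfhl3, cfhl5, C1S (2 of 3), fgg, tfa, vwf, apoa1b, apoa2, sepp1a, mthfd1l, slc25a32a, slc22a2, eevs, gyg1a, tmem56a, tmem56b, ucp1, itln3 and muc13b) were named after their values were seen. The genes and the 48 lists were chosen with earlier results of these data known, and a mismatched symbol was removed from one list afterwards. Newer names came from a gene name table supplied as reference (26121 of 31953 IDs matched). A few genes that the rule names are not reported here. No sequence is shown.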

Additional observations from a re-analysis of the deposited data

How the results depend on the processing

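The counts of risen and fallen genes, 56 and 105, were 68 and 119 with a minimum mean of 10, 39 and 69 with 50, and 30 and 46 with 100. They were 89 and 171 at an adjusted p under 0.1, 32 and 39 at 0.01, and 31 and 36 with Benjamini-Hochberg adjustment over all genes with a p. With fold changes centred on the median of the genes they were 59 and 83. With limma-voom on the recovered reads 3 rose and 0 fell by size factors, and 2 rose and 0 fell by TMM, with 337 and 416 genes at an unadjusted p under 0.05. Of those genes 173 were higher and 164 lower in E2 by size factors, and 206 higher and 210 lower by TMM. Leaving out 1 library each with limma-voom gave 0 to 18 risen and 0 to 42 fallen genes. There the lone library of an arm is assumed to vary like the other group. Both highest counts came without the shallower control (18 and 42), and the counts were 5 and 18 without the deeper control and 0 without either E2 library. Chosen after seeing the data, limma-voom by library totals gave 2 and 0, genes whose libraries do not overlap numbered 44 and 100, and genes with no more than 90% of the higher group in 1 library numbered 33 and 77.

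Without the deeper E2 library the log2 ratio was -0.25 for gpam and -1.45 for reep2 (up to 6.56 and 5.67 without another library). These were the 2 genes named by rule that turned. Among the genes named after their values were seen, mthfd1l also turned without the deeper E2 library. Of 44 list medians the sign differed in 6 without the shallower control, 2 without the deeper control, 4 without the deeper E2 library, 3 without the shallower E2 library, and 1 of 44, 2 of 43 and 3 of 39 at minimum means of 10, 50 and 100. Among lists with a median over 1 in size, the estrogen response turned without the deeper E2 library and amino acid transporters at a minimum mean of 100. The causes were not tested, except that a higher minimum mean leaves fewer genes to count. Depth limits the shallower E2 library, where 512 genes have no read. No paired analysis was possible because the deposited columns are comparisons and carry no replicate numbers.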
